A study of Caenorhabditis elegans with 2 samples.

Results

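The tubulin and actin genes described here were 10 listed members of the cytoskeletal gene families of Caenorhabditis elegans, out of 19973 protein-coding genes annotated on the nuclear chromosomes. They were 3 α-tubulin genes (tba-1, tba-2, tba-4), 2 β-tubulin genes (tbb-1, tbb-2), the γ-tubulin gene tbg-1 and 4 actin genes (act-1, act-2, act-3, act-4), and all 10 were found in the annotation by name. The measurement was chromatin immunoprecipitation and sequencing of the product of Y95B8A.8, annotated as zfr-1, with an antibody against GFP, in whole young adult worms of strain RW12277. The worms were 63 hours old and had been synchronised by bleaching and starvation at the first larval stage. In this strain Y95B8A.8 carries a TY1, EGFP and 3xFLAG tag that was inserted with CRISPR. There was 1 group of 2 biological replicates and no second genotype, treatment or time. Each replicate is a pool of whole animals, so a site bound strongly in few cells and a site bound weakly in many cannot be told apart.

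Microtubules are polymers of α- and β-tubulin pairs, and γ-tubulin nucleates them at centrosomes. Actin forms the filaments of the cell cortex, of the cytokinetic ring and, in muscle, of the sarcomere. Worms have several genes for each protein. tba-1, tba-2, tbb-1, tbb-2 and tbg-1 serve the spindles of the germ line and early embryo, tba-4 is broadly expressed in the body, and act-2 encodes a cytoplasmic actin. act-1, act-3 and act-4 are known for expression in body wall muscle, although act-1 and act-3 also act outside it. The neuronal tubulins, such as mec-7 and mec-12 of the touch receptor neurons, are encoded by further genes of the families.

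Sites lay at the 5′ ends of 5 of the 10 members. In the thresholded list of both replicates (1694 peaks), tbb-1, tbg-1, act-2, tba-2 and tbb-2 each had 1 summit within 1000 bp of the annotated 5′ end, at upstream positions in every case. Of all protein-coding genes, 5.96% had such a summit (1191 of 19973). The 5 were all among the 7 broadly expressed or germ line members, of which tba-1 and tba-4 had none, and 0 of the 3 muscle members had one. With 5.96% of all genes called, a count of 0 among 3 genes is near the background, and nothing particular to the muscle members is read from it. The members were chosen with earlier results of these data known, so the counts are a description and were given no test.

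The bases around 4 of these summits, 50 bp to each side on the plus strand of assembly ce11, show how different the sites are in sequence. Capitals mark words of 6 bases that belonged to the 10 words with the largest excess at the summits of all other peaks, as described further on. The windows are chrIII:10742635-10742735 at tbb-1, chrIII:9629974-9630074 at tbg-1, chrV:11078511-11078611 at act-2 and chrIII:4018296-4018396 at tbb-2. None overlaps an annotated coding exon or UTR.
tbb-1: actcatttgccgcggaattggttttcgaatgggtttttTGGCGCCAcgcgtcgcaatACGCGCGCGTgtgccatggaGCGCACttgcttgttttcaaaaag
tbg-1: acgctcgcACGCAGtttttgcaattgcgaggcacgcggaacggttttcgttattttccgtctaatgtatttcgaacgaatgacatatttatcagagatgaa
act-2: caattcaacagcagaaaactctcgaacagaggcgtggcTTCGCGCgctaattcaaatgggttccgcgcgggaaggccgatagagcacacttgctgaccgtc
tbb-2: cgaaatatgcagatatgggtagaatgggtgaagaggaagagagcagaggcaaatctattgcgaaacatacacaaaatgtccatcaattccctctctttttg
Capitals lie on both sides of the summit in the tbb-1 window, sit just left of the summit at act-2, stand near the left edge at tbg-1 and are absent from the tbb-2 window.

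The β-tubulin gene tbb-1 (WBGene00006536, chromosome III, 10740868 to 10742432, minus strand) had the strongest site of the family. Its peak, chrIII:10742611-10742773, had a signal of 291.9 and stood at rank 21 of 1694, where signal is the value that the authors' peak caller gave each peak. The signal was 153 in replicate 1 and 147 in replicate 2, at ranks 27 of 46119 and 32 of 44169 in the ranked lists of the single replicates. Both replicates thus placed the site near the top, with summits 245 and 265 bp upstream of the 5′ end. The summit in the list of both replicates lay 253 bp upstream of tbb-1 and 125 bp upstream of the divergent gene rib-2, a glycosyltransferase of heparan sulfate synthesis. The 2 annotated 5′ ends are 378 bp apart, and which of these promoters the site belongs to was not tested. The peak was 163 bp wide, whereas 101 of the 1694 peaks (5.96%) were narrower than the common width of 290 bp.

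The γ-tubulin gene tbg-1 (WBGene00006540, chromosome III, 9626536 to 9629154, minus strand) had a peak at chrIII:9629879-9630168 with a signal of 145.5, at rank 169 of 1694. The signal was 79.1 in replicate 1 and 63.7 in replicate 2, and both single replicate lists held the peak past the threshold. Its summit lay 870 bp upstream of tbg-1, beyond another gene. rpac-19, a subunit gene of RNA polymerases I and III, lies on the same strand with 91 bp between it and tbg-1, and the summit was 139 bp upstream of rpac-19. When each peak was given to the nearest gene alone, this peak went to rpac-19 and that of tbb-1 to rib-2.

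The second β-tubulin gene, tbb-2 (WBGene00006537, chromosome III, 4015910 to 4017627, minus strand), differed between the replicates. Its upstream peak, chrIII:4018201-4018490, had a signal of 76.5 at rank 900 of 1694, with the summit 719 bp upstream and no other protein-coding 5′ end within 1000 bp. In replicate 1 the matching peak had a signal of 51.2 and a score of 975. In replicate 2 it had a signal of 22.2 and a score of 327, under the threshold of 830, where the score runs up to 1000 and 830 corresponds to an irreproducible discovery rate of 0.01. The site was therefore in the list of replicate 1 and not in that of replicate 2, and the conservative list of both replicates did not hold it.

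Of the α-tubulin genes, tba-2 (WBGene00006529, chromosome I, 12964674 to 12966795, minus strand) had a site of its own. The peak at 12966787 to 12967076 had a signal of 82.3 at rank 763 of 1694, with the summit 137 bp upstream and no other protein-coding 5′ end within 1000 bp. The signal at this site was 38.2 in replicate 1 and 44.3 in replicate 2, and the scores of 834 and 1000 both passed. Replicate 1 also had a thresholded peak 372 bp downstream of the 5′ end, inside the gene, with a signal of 43.4. In the ranked list of both replicates the nearest peak to it, 370 bp downstream, had a score of 560 and did not pass.

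The other 2 α-tubulin genes had no thresholded summit in this range. For tba-1 (WBGene00006528, chromosome I, 9785781 to 9787624, minus strand) a strong peak lay just outside it, at 9788657 to 9788742. That peak had a signal of 218 at rank 57, and its summit was 1056 bp upstream of tba-1 and 45 bp upstream of cox-5B, a cytochrome oxidase subunit gene transcribed in the opposite direction. Its signal was 127 in replicate 1 and 91.8 in replicate 2. The strongest ranked peak within 1000 bp of tba-1 had a signal of 44.1 and a score of 211. For tba-4 (WBGene00006530, chromosome II, 10918706 to 10920211, plus strand) the strongest ranked peak had a signal of 23.3 and a score of 37, the lowest score of its list and the lowest signal among the 10 members. The broadly expressed members thus held both the highest and the lowest signals of the family.

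Of the actin genes, act-2 alone had a site within 1000 bp of its 5′ end. act-1, act-2 and act-3 lie within 10726 bp of one another on chromosome V. The peak of act-2 (WBGene00000064, chromosome V, 11076777 to 11078154, minus strand) at chrV:11078416-11078705 had a signal of 99.1 and rank 454 of 1694, with the summit 407 bp upstream. The signal was 54.9 in replicate 1 and 45.6 in replicate 2, with summits 426 and 424 bp upstream and scores of 1000 and 910, so both replicates held it. No other protein-coding 5′ end lay within 1000 bp, and the summit fell inside the annotated non-coding RNA genes T04C12.18 and T04C12.24.

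The muscle members had ranked peaks of intermediate signal that did not pass. The strongest within 1000 bp of the 5′ end of act-4 (WBGene00000066, chromosome X, 4960621 to 4964413, plus strand) lay 502 bp downstream and had a signal of 52.3 and a score of 659. Its signal was 40.1 in replicate 1, and the strongest peak of replicate 2 in that range had 20.9. For act-1 (WBGene00000063, chromosome V, 11081052 to 11082415, plus strand) the value was 45.2 in the list of both replicates, with 24.0 in replicate 1 and 15.7 in replicate 2. For act-3 (WBGene00000065, chromosome V, 11071690 to 11074498, minus strand) it was 38.5, with 30.01 and 27.1. These act-3 peaks lay at different places. The peak in the list of both replicates lay 431 bp downstream of the 5′ end. Those of replicate 1 and replicate 2 lay 535 and 393 bp upstream. In the list of both replicates a second peak, 537 bp upstream of act-3, had a signal of 37.5 and a score of 548. At a score of at least 540, which corresponds to a rate of 0.05, act-3 and act-4 joined the 5 members above, while the share of all genes rose to 10.3%.

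The actin genes include near-identical copies. The coding sequences of act-1 and act-3 (1128 bp each) were identical, and act-2 and act-4 matched them at 96.2% and 94.1% of positions. Of the 36 bp words of the act-1 gene (a length chosen here), 12.6% occur once in the genome, against 58.3% for act-3, 64.6% for act-2 and 94.7% for act-4. The ranked lists of both replicates and of each replicate alone held 0 summits inside the act-1 gene. In the list of both replicates act-3 had 5, act-2 had 2 and act-4 had 6. The genes differ in length, with 2809 bp for act-3, 1378 bp for act-2, 3793 bp for act-4 and 1364 bp for act-1. The part of gene length and of copy identity in these counts was not tested. The range of 1000 bp around a 5′ end also covers part of the gene. The part of copy identity in the signal of act-1, and in its lack of a thresholded summit in that range, was not tested either. All 36 bp words in the 1000 bp upstream of each of these 4 genes were unique. The same held in the 10 thresholded peaks of both replicates listed around the members. Peaks below the threshold and peaks of single replicates were not examined in this way. Among the tubulin genes, tba-4 had the lowest share of unique words, 80.6%, and its 1000 bp upstream had 99.9%. The sources used here give neither the read length nor the treatment of reads with several matches.

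**Figure D1:**
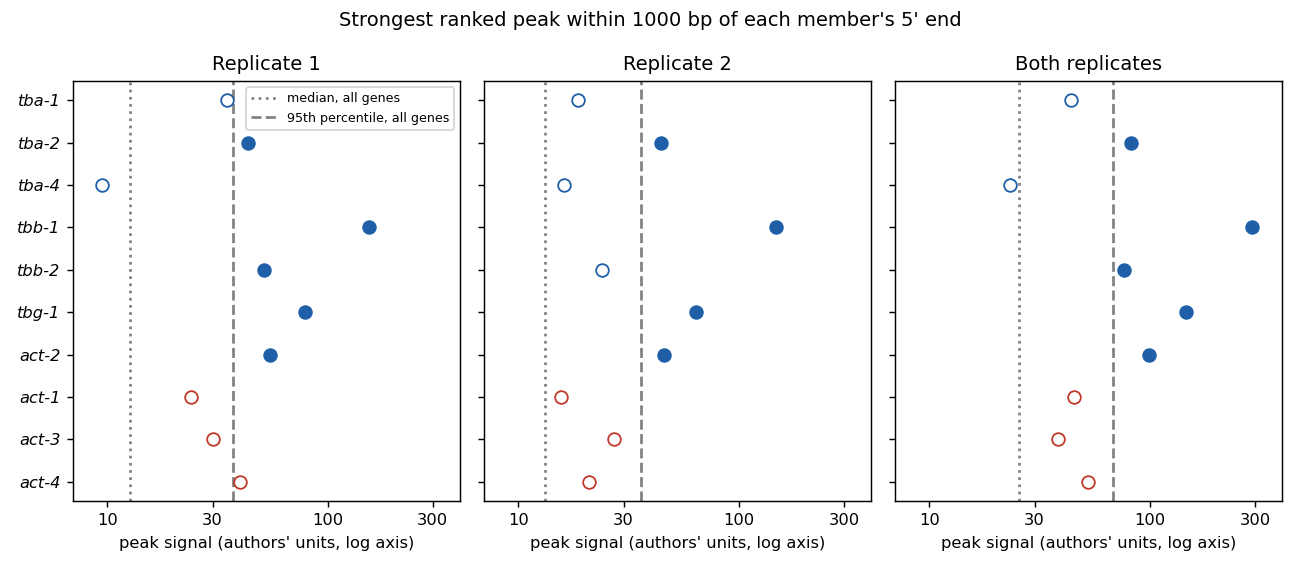
Signal of the strongest ranked peak within 1000 bp of the 5′ end of each member (x axis, logarithmic, in the units of the authors' peak caller), in the ranked lists of replicate 1, of replicate 2 and of both. Filled points have a thresholded peak in that range, blue marks broadly expressed or germ line members and red marks muscle members, and the lines give the median and the 95th percentile over 19973 genes, with genes without a peak at 0. tbb-1 and tbg-1 stand highest in all 3 panels, and act-1, act-3 and act-4 have open points in each. The strongest peak of a member can be a different site in each panel.

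Set against all genes by the same measure, the members stood high in the ranked lists. The median signal of the 10 members was 64.4 in the list of both replicates, against 25.6 over all 19973 genes, and their median percentile was 93.4. For the 7 broadly expressed members the median was 82.3, with a range of 23.3 to 291.9, and for the 3 muscle members it was 45.2, with a range of 38.5 to 52.3. The ranges overlap because tba-4 and tba-1 lie at 23.3 and 44.1. tbb-1 was the gene at rank 20 of 19973 in the list of both replicates, at 20 in replicate 1 and at 21 in replicate 2. tbg-1 had percentiles of 99.1, 99.2 and 98.8 in the same lists and act-2 had 97.9, 98.1 and 97.3, so these 3 kept their order in each replicate. tba-2 stood at 666, 681 and 590, while tbb-2 moved from 451 in replicate 1 to 3192 in replicate 2. In replicate 1 its signal of 51.2 lay above the 43.4 of tba-2, and in replicate 2 its strongest peak, at 23.9, lay below the 44.3 of tba-2. For these genes the strongest peak was not the same site in both replicates. For tba-2 it lay 372 bp downstream of the 5′ end in replicate 1 and 134 bp upstream in replicate 2. For tbb-2 it lay 723 bp upstream in replicate 1 and 191 bp downstream in replicate 2. No order of tba-2 and tbb-2 is read from these values. The strongest peak of tba-1 also changed place, from 297 bp downstream in replicate 1 to 470 bp upstream in replicate 2. At tba-4 it went from 827 bp upstream to 846 bp downstream, and at act-4 from 528 to 859 bp downstream. At act-1 and act-3 it stayed upstream, at 829 and 939 bp and at 535 and 393 bp. The replicate signals and percentiles of these members are therefore not all values of the same site.

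The lists of the single replicates gave nearly the same members. Replicate 1 held thresholded summits at the 5 members named, against 2.82% of all genes. Replicate 2 held them at tbb-1, tbg-1, act-2 and tba-2, against 2.83%. The conservative list held the same 4, against 5.46% of all genes. Each of the 5 sites was matched to the strongest ranked peak of the replicate with a summit within 100 bp, so closeness is part of the rule. The matched summits lay 0 to 19 bp from that of the joint list in replicate 1 and 3 to 37 bp in replicate 2. The 37 bp belonged to tbb-2, whose matched peak in replicate 2 was under the threshold. When each peak was assigned to its nearest gene alone, the members with a site were act-2, tba-2 and tbb-2, against 4.45% of all genes.

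The genes of the peaks next in signal to those of the members, as the sites most like them by that measure alone, were of several kinds. The nearest peaks with a gene in range above and below tbb-1 in the thresholded list were those of drr-2 (293.2) and unc-85 (286), the latter a histone chaperone gene, and around tbg-1 stood ubr-5 (145.7) and kel-3 (145.2). act-2 stood between spd-5 (99.4), a scaffold protein of the centrosome, and tre-1 (98.9), a trehalase. tba-2 stood between mpc-2 and rps-13, both at 82.3, and tbb-2 between lron-10 and Y54G9A.7, both at 76.5.

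**Figure D2:**
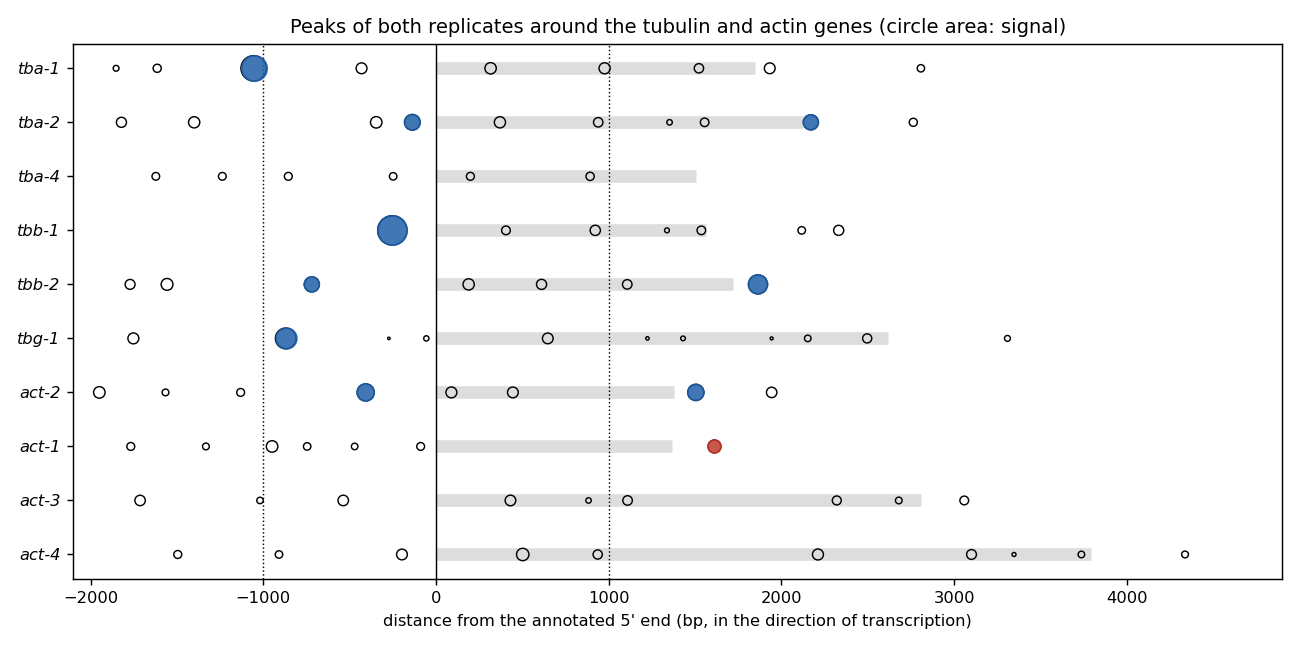
Peaks of both replicates around each member, by distance of the summit from the annotated 5′ end in bp in the direction of transcription, with grey bars for the genes and circle area in proportion to signal. Filled circles are thresholded peaks (red at a muscle member), open circles are ranked peaks below the threshold, and dotted lines stand at 1000 bp on each side. The thresholded summits lie upstream of the 5′ end or just past the 3′ end, and none lies inside the member gene itself.

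A second position of sites was beside the 3′ ends. Thresholded summits lay within 300 bp of the annotated 3′ end of act-1, act-2, tba-2 and tbb-2, 4 of the 10 members, against 3.48% of all protein-coding genes. The distance of 300 bp was chosen after these positions were seen. The strongest was past the end of tbb-2, at 4015702 to 4015780, with a signal of 122.8 and rank 253 of 1694, above the 76.5 of the upstream site of that gene. It lay 147 bp downstream of tbb-2 and inside the 3′ UTR of C36E8.4, and its signal was 73.0 in replicate 1 and 47.0 in replicate 2.

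The site past act-2 lay 127 bp downstream of the gene, with a signal of 88.2 at rank 626, and with 54.2 in replicate 1 and 39.1 in replicate 2. That summit was inside the non-coding RNA gene T04C12.14. Each replicate held the sites past act-2 and tbb-2 beyond the threshold. The site past tba-2, 49 bp downstream with a signal of 76.2, was also 46 bp upstream of the next gene, C47B2.2, on the same strand. It passed in replicate 1 (48.3) and not in replicate 2 (36.1, score 219). The site past act-1 was 249 bp downstream with a signal of 56.5 at rank 1544, inside the non-coding RNA gene T04C12.29, and it passed in neither replicate alone, with scores of 309 and 825. It was the 1 thresholded site between 2000 bp upstream and 1000 bp past the end of a muscle member. When peaks with a protein-coding 5′ end within 1000 bp were left out, act-1, act-2 and tbb-2 still had a site past the 3′ end, against 1.74% of all genes.

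The bases at the members' summits were read for short words. Every 6 bp word was counted on both strands, and the words were ranked by the share of the other 1684 peaks that held them within 50 bp of the summit, less the share in a window centred 250 bp to the left. The 10 words with the largest difference were rich in CG and overlap one another. The first was ACGCAG, in 11.5% of summit windows, in 1.96% of the windows to the left and in 3.10% of the upstream windows of all genes defined next. The second was GCGCCA, with 10.04%, 1.72% and 1.95%. At least 1 of the 10 words was in 43.1% of the other summit windows, in 11.5% of the windows to the left and in 13.9% of windows of the same width centred 150 bp upstream of all genes. The words were chosen by their excess in these same summit windows over those to the left, so the direction of that difference was fixed by the choice.

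Of the 5 summits upstream of members, 4 had at least 1 of these words. The window at tba-2 held 6 of the 10 and that at tbb-1 held 3, with GCGCCA in both. That at act-2 held 2, which overlap each other and were both also at tba-2. At tbg-1 there was 1, ACGCAG, at the edge of the window, and at tbb-2 there were 0. Of the 4 summits past 3′ ends, those of act-1 and tba-2 each held CGCAGA, and the windows at act-2 and tbb-2 held 0 of the words. The window at tbb-1 was 52.5% G and C and that at act-2 was 55.4%, against a median of 45.5% over all 1694 summit windows, while tbg-1 had 42.6% and tbb-2 had 40.6%. A word found is a description of these windows and not a shown binding site, and whether base composition alone gives these shares was not tested.

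The further tubulin and actin genes had no thresholded site near the 5′ end, 0 of 11, among them 0 of the 7 neuronal genes mec-7, mec-12, ben-1, tbb-4, tba-5, tba-6 and tba-9. Their strongest ranked peak had a median signal of 37.4 in the list of both replicates, below the 45.2 of the muscle members and above the 25.6 of all genes. The highest was 61.3 at tba-7, with a score of 690. mec-7 and mec-12, the β- and α-tubulin of the touch receptor neurons, had 37.4 and 40.4. The act-5 gene, whose actin lines the microvilli of the intestine, had 41.2, and tba-5 and tbb-4 had no ranked peak within 1000 bp in this list. With 5.96% of all genes called, a count of 0 among 11 genes or among 7 is near the background, and nothing particular to these genes is read from it.

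**Figure D3:**
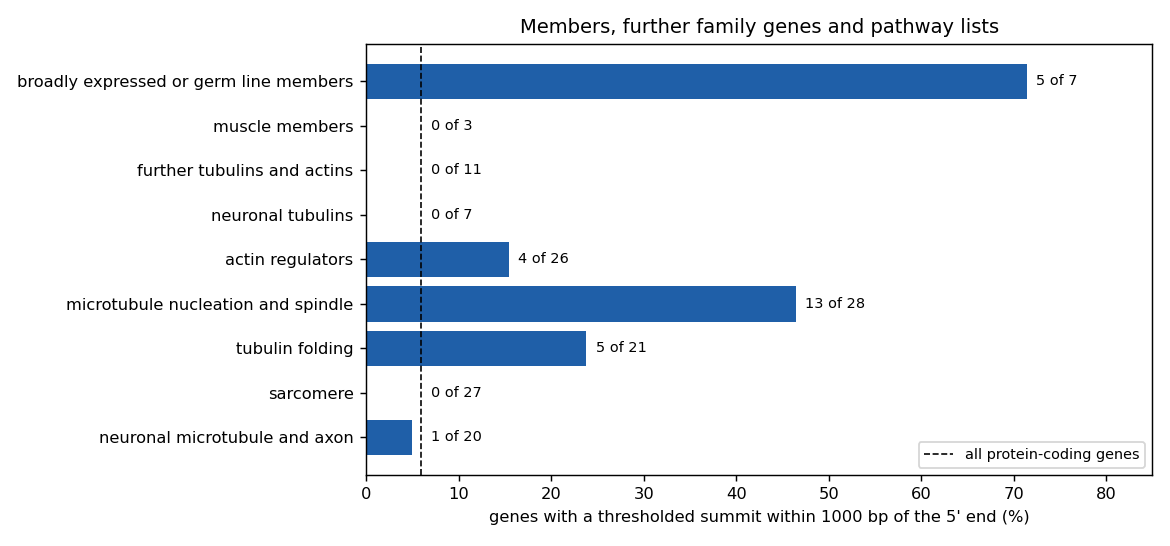
Share of genes with a thresholded summit within 1000 bp of the 5′ end (x axis, percent) for the members, the further family genes and the pathway lists, with the count beside each bar. The dashed line marks the 5.96% of all protein-coding genes, and the neuronal tubulins are a subset of the further tubulins and actins. The bars of the broadly expressed members and of the microtubule nucleation and spindle genes are the longest, and the sarcomere list has no bar.

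Genes that work with these proteins differed by list, set against the 5.96% of all genes with a site by the same rule. Of the genes of microtubule nucleation and the spindle, 13 of 28 had a site (46.4%), led by mzt-1 (signal 176), a small protein of the γ-tubulin complex, and klp-18 (143), a kinesin of the meiotic spindle. They were followed by cls-2 (131), a microtubule-stabilising protein of the kinetochore and spindle, and zen-4 (114), a kinesin of cytokinesis. The other 9 ranged from 65.0 to 108. At 11 of the 13 another protein-coding 5′ end lay within 1000 bp of the summit, and at 5 of them it was nearer, as at mzt-1 with the summit 960 bp upstream. Replicate 1 alone gave 8 and replicate 2 alone gave 5, against 2.82% and 2.83% of all genes, and assignment to the nearest gene gave 8, against 4.45%.

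Of the genes for tubulin folding, 5 of 21 had a site (23.8%), against 5.96% of all genes. They included cct-8 (230.5), cct-1 (98.0) and cct-5 (87.1), subunits of the chaperonin that folds tubulin and actin, and pfd-1 (77.0), a subunit of prefoldin. At 4 of the 5 another gene was nearer to the summit. Replicate 1 alone gave 2 and replicate 2 alone gave 1, against 2.82% and 2.83% of all genes. Assignment to the nearest gene gave 1 of the 21, which is near the 4.45% of all genes by that rule. Of the actin regulators, 4 of 26 had a site (15.4%), namely the capping protein gene cap-2 (137), wve-1 (133) and gex-3 (64.0) of the WAVE complex, which activates branched actin assembly, and ani-1 (97.0), an anillin of the cytokinetic ring. For the actin regulators, replicate 1 alone gave 3 and replicate 2 alone gave 2 of the 26, against 2.82% and 2.83% of all genes. Assignment to the nearest gene gave 2 of the 26, against 4.45%.

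The muscle and neuronal lists had few sites. Of the sarcomere genes, among them unc-54 and myo-3 of the thick filament, 0 of 27 had a site, and the median of their strongest ranked peaks was 21.8, under the 25.6 of all genes. Of the neuronal microtubule and axon genes, 1 of 20 had one (5%), ttll-4 (68.1), a tubulin glutamylase gene, whose site was in the list of replicate 2 and not in that of replicate 1. With 5.96% of all genes called, both counts are near the background, and nothing particular to these lists is read from them. The control library was not analysed here, so the part of transcription level or open chromatin in these shares was not tested.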

How the data were processed

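Per the labels and the README deposited with the lists, the authors made peak lists on assembly ce11 for each replicate and for both together, as ranked and thresholded lists, with a further conservative list. The deposited signal of each peak is the authors' peak caller value. The deposited score follows from the deposited −log10 of the irreproducible discovery rate. The aligner, the peak caller and its normalization are not stated in those sources. The depth of the libraries is unknown, so no interval was computed for a signal, and signals were compared within 1 list only.

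Peaks were placed by summit on Ensembl release 115 genes (WBcel235), whose chromosome lengths hold all peaks. A gene had a site if a summit lay within 1000 bp of its annotated 5′ end, and every gene in range was counted. Sequences came from the RefSeq WBcel235 genome. No test was run, since there was 1 group of 2 samples, which the labels call biological replicates. Members and lists were chosen with earlier results of these data known. The text names all members, up to 4 genes per list by signal, genes sharing a member's peak and the genes next in signal. Of the listed genes, tmd-1 and pdcl-3 were not matched by name. mec-7, mec-12, act-5, tba-7, tba-5, tbb-4, unc-54 and myo-3 were named after their values were seen. Counting was tested on simulated data. Python 3.11.15, numpy 2.4.6, pandas 2.3.3 and matplotlib 3.10.9 were used.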

Additional observations from a re-analysis of the deposited data

How the results depend on the processing

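The 5 members with a site at the 5′ end stood against 5.96% of all genes. They became 3 (act-2, tba-2, tbb-1) with summits within 500 bp, against 4.18% of all genes. With assignment to the nearest gene alone they became 3 (act-2, tba-2, tbb-2), against 4.45%. They became 7 within 2000 bp (with act-1 and tba-1 added), against 8.88%. At a score of at least 540 they were also 7, against 10.3%. The count of broadly expressed members, 5 of 7, became 3 under the same first 2 settings. Of the 3 muscle members, 0 had a site except within 2000 bp (1, act-1, by its site past the 3′ end) and at the lower score (2). Without replicate 1 and without replicate 2 the members were 4 and 5, broadly expressed ones 4 and 5, and muscle ones 0 and 0. Of all genes, 2.83% and 2.82% had a site in these settings. Moving act-1 and act-3 to the broadly expressed set could not change the counts of called genes, 5 and 0, since neither gene had a site. It enlarged the broadly expressed set and left act-4 alone in the muscle set. Sites past 3′ ends were at 4 of 10 members, against 3.48% of all genes. They were at 2 without replicate 1 (1.44% of all genes) and at 3 without replicate 2 (1.53%). Within 500 bp they were at 4 (4.1%), and without peaks near a protein-coding 5′ end at 3 (1.74%). In the conservative list they were at 3 (3.29%). All of these settings for sites past 3′ ends were chosen after seeing the data. The median percentile of the members' strongest peaks, 93.4, was 86.4 without replicate 1 and 96.2 without replicate 2. For single members, 24 of 60 alternative percentiles moved by more than the SD of the 2 replicates. That SD differs widely between members, and the alternatives include the replicates themselves, so the count does not measure stability. For tbb-1, 99.895 against 99.890 without replicate 1 counted as moved. For tba-1, 85.1 against 99.6 within 2000 bp did not. Where counts fell with a narrower distance or nearest assignment, the rule itself removes sites. No paired analysis was possible because there was 1 group.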
